A study of Homo sapiens with 2 samples.

Results

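The genes described here are 10 cytokines and chemokines that lung carcinoma cells can secrete: IL6, LIF, IL32, CXCL1, CXCL2, CXCL3, CXCL5, CXCL8, CCL2 and CCL20. They were chosen by name, with earlier results of these data known, and all 10 were found among the 58302 genes of the deposited tables. The RNA came from A549, a human cell line established from a lung adenocarcinoma and kept in F12K with 10% FBS, and was sequenced as 2 libraries. The first library came from cells overexpressing PGC-1α, a transcriptional coactivator known for its part in mitochondrial gene expression, and the other from cells whose genotype label is control. The labels give no construct, no clone and no time after gene transfer. With 1 library in each group, differences could not be checked against replicates, no p-value is given, and every interval covers counting error only.

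Chemokines are small secreted proteins that draw leukocytes along a gradient. CXCL1, CXCL2, CXCL3, CXCL5 and CXCL8 belong to the CXC family members that carry a Glu-Leu-Arg motif and attract neutrophils through CXCR2, and CXCL8 also acts through CXCR1. CCL2 attracts monocytes through CCR2, and CCL20 attracts CCR6-bearing lymphocytes and dendritic cells. IL6 and LIF are cytokines that share the receptor subunit gp130, encoded by IL6ST, and signal to STAT3, while IL32 is a pro-inflammatory cytokine with no agreed receptor. Transcription of most of these genes is known to be driven by NF-κB, often together with AP-1 and C/EBP factors, and many of their mRNAs are short-lived.

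Promoter sequences of 8 of the 10 genes were available from RefSeq on GRCh38.p14, covering 250 bases before and 50 bases after the annotated start. LIF and CCL2 are named only. The stretches below are shown because NF-κB is the factor these genes are known to share. Each is 69 bases long, written 5′ to 3′ on the strand of the gene, with the match to GGNNTTTCC or its reverse complement in capitals and 30 bases on either side. The search covered both strands, and the motif was chosen after the sequences had been seen.

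CXCL1, chr4:73869285-73869353, + strand: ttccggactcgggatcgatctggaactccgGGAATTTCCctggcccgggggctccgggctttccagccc
CXCL2, chr4:74099234-74099302, - strand: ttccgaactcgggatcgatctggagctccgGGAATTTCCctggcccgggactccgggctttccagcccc
CXCL3, chr4:74038729-74038797, - strand: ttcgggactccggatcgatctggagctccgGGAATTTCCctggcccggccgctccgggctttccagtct
CXCL5, chr4:73998729-73998797, - strand: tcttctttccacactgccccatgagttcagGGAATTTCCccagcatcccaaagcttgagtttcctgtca
CXCL8, chr4:73740448-73740516, + strand: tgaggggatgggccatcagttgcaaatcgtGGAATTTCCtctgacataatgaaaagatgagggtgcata
IL6, chr7:22727098-22727166, + strand: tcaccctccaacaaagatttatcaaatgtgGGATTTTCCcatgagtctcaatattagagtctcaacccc
IL32, chr16:3065275-3065343, + strand: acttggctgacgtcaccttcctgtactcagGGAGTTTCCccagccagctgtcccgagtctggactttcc
CCL20, chr2:227813733-227813801, + strand: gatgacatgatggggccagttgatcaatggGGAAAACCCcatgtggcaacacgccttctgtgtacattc

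Of 35116 promoter entries of the same length, 6.26% held a match to GGNNTTTCC, counted per entry. All 8 genes held a match in the window of an annotated start, counted per gene. The motif was chosen with these 8 sequences in view, so the contrast is a description and no measure of enrichment. The match lay 72 bases before the start in IL6 and 98 in IL32, with the other genes in between, counted to its first base. It read GGAATTTCC in all 5 CXC genes, and in CCL20 it stood on the opposite strand. GGAATTTCC, a string read off these sequences, was present in 0.461% of entries. The NF-κB consensus motif, searched separately on both strands, overlapped the same positions in 7 of the 8 genes and had no match in CXCL8, with 5.91% of entries holding it. IL32 has a second RefSeq start, whose window held no match. Over the 69 bases, CXCL1 and CXCL3 were identical at 89.9% of positions, CXCL1 and CXCL2 at 81.2%, and CXCL1 and CXCL5 at 43.5%. The AP-1 motif TGACTCA occurred in CXCL8 alone among the 8, against 4.95% of entries. CXCL1, CXCL2, CXCL3 and IL32 held another match nearer the start, left in lower case above. These matches are letters in a window and not measured binding.

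The libraries held 24334768 counts with PGC-1α and 27125084 in the control. PPARGC1A, which encodes PGC-1α, had 4654 counts in the PGC-1α library and 5 in the control, so its level matched the labels. Genes whose CPM, the count scaled to library size with TMM factors, averaged 1 or more are called measured, and there were 14154 of them. With PGC-1α 5.31% of these passed a 1.5-fold difference upward and 3.95% passed it downward, each with an exact 95% interval of the ratio that excluded 1. Of 11 epithelial and A549 markers 9 were measured, and the list summed to 11599 CPM with PGC-1α and 12570 CPM in the control. KRT19, CDH1, AKR1C1 and AKR1B10 of that list were lower, with log2 ratios of -1.13, -0.95, -0.72 and -0.60, and their part in the results below was not tested. The most abundant, the keratin KRT8, stood at 3899 CPM in the PGC-1α library and 3868 CPM in the control. NKX2-1, a lung lineage factor, was at 0 in both, and SFTPC, of alveolar type 2 cells, had 1 count with PGC-1α and 2 in the control. PTPRC, the pan-leukocyte gene, had 2 counts in the PGC-1α library and 0 in the control, and the T-cell genes CD3D and CD3E were at 0 in both.

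Among the 10 genes, CXCL5 and LIF had the highest levels in both libraries. On the per-length scale of the deposited FPKM, CXCL5 stood at 96.0 FPKM with PGC-1α and 107 FPKM in the control. It ranked 354th of 19847 protein-coding genes with PGC-1α and 304th in the control. LIF stood at 31.3 FPKM with PGC-1α and 36.6 FPKM in the control. Together CXCL5 and LIF made up 74.2% of the summed FPKM of the 10 genes in the PGC-1α library and 70.4% in the control. The other 8 genes spanned a wide range in both libraries, with CXCL1 highest at 13.8 FPKM with PGC-1α and 19.1 FPKM in the control, and IL6 lowest at 0.377 FPKM with PGC-1α and 0.4996 FPKM in the control.

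**Figure D1:**
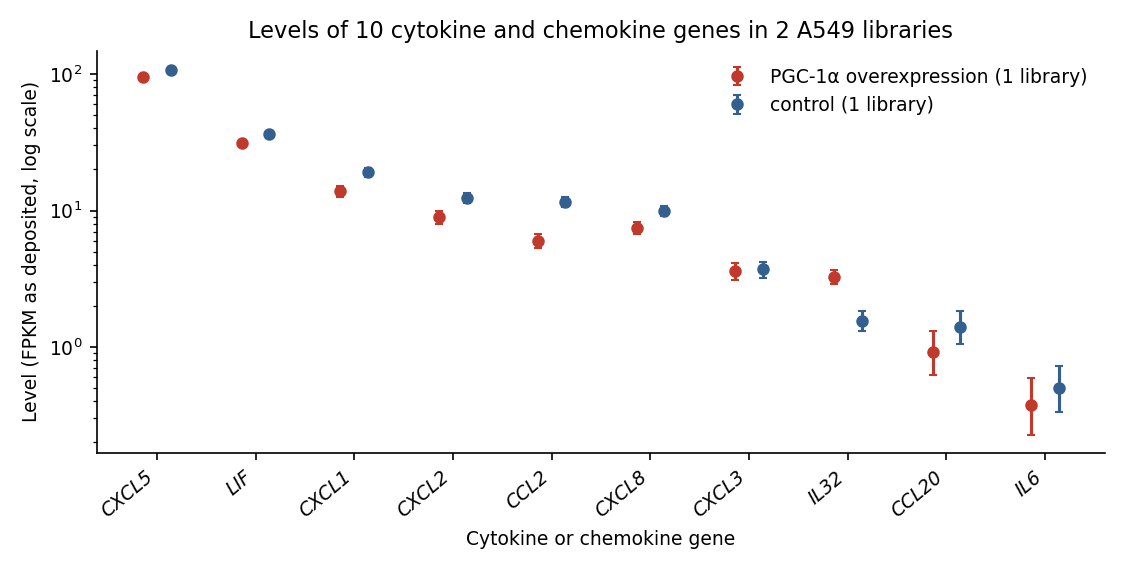
Level of each gene in FPKM as deposited, on a log axis, with PGC-1α overexpression in red and the control in blue, 1 library each; bars are exact 95% Poisson intervals of the count. CXCL5 and LIF lie above the other 8 genes in both libraries, and IL32 is the gene whose PGC-1α point is above its control point.

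In the PGC-1α library the order of levels was CXCL5, LIF, CXCL1, CXCL2, CXCL8, CCL2, CXCL3, IL32, CCL20 and IL6. The counting intervals of CXCL2 and CXCL8 overlapped there, as did those of CXCL3 and IL32, so these neighbours were not separated. In the control CCL2 stood before CXCL8, and the order was otherwise the same. In that library the intervals of CXCL2 and CCL2 overlapped, as did those of CCL2 and CXCL8, and of IL32 and CCL20.

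IL32 was higher with PGC-1α and CCL2 was lower, and these were the 2 of 9 measured genes that passed 1.5-fold with an interval excluding 1. CCL20, at 0.663 times the control level, also passed 1.5-fold, but its interval included 1. Against the background of 5.31% higher and 3.95% lower, 1 of 9 called in each direction does not set the 9 genes apart. With no filter on low counts all 10 genes could be called and the backgrounds were 4.54% higher and 3.1% lower, while over genes averaging 5 CPM or more they were 3.44% higher and 2.42% lower, with IL32 and CCL2 again the 2 called. In direction, 9 of the 10 genes had a lower level in the PGC-1α library and IL32 alone a higher one. Of all measured genes, 51.0% were on the lower side. The 10 genes were chosen with earlier results of these data known, so this contrast is a description. The intervals of IL6, CCL20 and CXCL3 included no difference. The median log2 ratio of the 10 genes was -0.38, beside -0.005 for all measured genes, and 9.45% of measured genes lay below the median of the 10. By the interval alone, whatever the size of the difference, 6 of the 9 measured genes were lower and 1 was higher. The background for that rule was 24.2% lower and 22.5% higher. Intervals narrow as counts rise, so abundant genes pass that rule at smaller differences, as CXCL5 did at a log2 ratio of -0.13. The part of abundance in this contrast was not tested. In bulk RNA, fewer cells expressing a gene and less RNA per cell cannot be told apart.

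**Figure D2:**
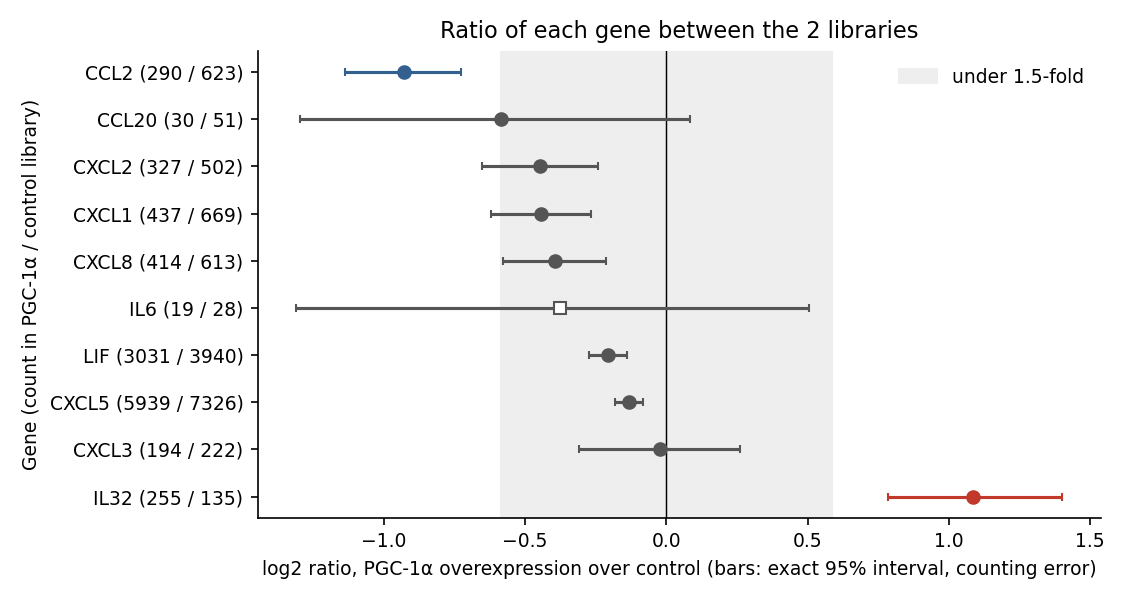
Log2 ratio of normalised counts, PGC-1α overexpression over control, for each gene with its exact 95% interval; the label gives the count in the PGC-1α library and then in the control, and the open square is IL6, under a mean of 1 CPM. CCL2 at -0.93 and IL32 at 1.09 lie outside the grey band of 1.5-fold with intervals that exclude 0.

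IL32 (ENSG00000008517, chromosome 16, 3065297 to 3082192, + strand) had 255 counts in the PGC-1α library and 135 in the control, which is 10.5 CPM with PGC-1α and 4.95 CPM in the control. The PGC-1α library was the higher one, by 2.13-fold, a log2 ratio of 1.09 (0.78 to 1.40). Of measured genes, 1.44% had a higher ratio. IL32 passed the 2-fold threshold too, which 1.78% of measured genes passed upward. On the per-length scale it stood at 3.26 FPKM with PGC-1α and 1.55 FPKM in the control, so it remained among the lower members in both. The gene spans the small nuclear RNA locus RNU1-125P and overlaps AC108134.3 on the opposite strand, and both of these were at 0 counts in both libraries. Of the distinct 50-base strings in its GENCODE 29 transcripts, 2.56% also occur in a transcript of another gene, most of them in RNU1-125P.

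CCL2 (ENSG00000108691, chromosome 17, 34255218 to 34257203, + strand) had 290 counts in the PGC-1α library and 623 in the control. Its level was 11.98 CPM with PGC-1α against 22.8 CPM in the control, a log2 ratio of -0.93 (-1.14 to -0.73). The PGC-1α level was thus 0.524 times that of the control, which did not pass the 2-fold threshold that 1.17% of measured genes passed downward. Of measured genes, 1.48% had a lower ratio. CCL2 fell in rank among protein-coding genes, to 5888th with PGC-1α, against 3669th in the control, by FPKM. No listed gene overlaps it, and none of its 50-base strings occurs in another gene. CD14, a monocyte gene, moved the same way as CCL2, with 82 counts in the PGC-1α library and 164 in the control and a log2 ratio of -0.82 (-1.23 to -0.44). ITGAM, the other measured gene of 14 immune cell markers, had 56 counts with PGC-1α and 45 in the control, a log2 ratio of 0.48 (-0.10 to 1.09). The list summed to 6.07 CPM with PGC-1α and 7.99 CPM in the control, with CD3D, CD3E, MPO, TYROBP and FCGR3A at 0 in both. Their part in the CCL2 difference was not tested.

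CCL20 (ENSG00000115009, chromosome 2, 227813842 to 227817564, + strand), the other CC chemokine, was detected in both libraries at low counts. It had 30 counts in the PGC-1α library and 51 in the control. The lower value was that of the PGC-1α library, with a log2 ratio of -0.58 (-1.29 to 0.08), an interval that included 0. A difference in CCL20 was therefore not detectable at this depth, although the interval reached beyond a 2-fold decrease.

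None of the 5 CXC chemokines that attract neutrophils passed 1.5-fold, and 4 of them were lower by the interval alone. Their log2 ratios ran from -0.45 for CXCL2 to -0.02 for CXCL3, with a median of -0.39 over the 5 genes. CXCL1 (ENSG00000163739) had 437 counts in the PGC-1α library and 669 in the control, a log2 ratio of -0.44 (-0.62 to -0.27). CXCL2 (ENSG00000081041) had 327 counts with PGC-1α and 502 in the control, a log2 ratio of -0.45 (-0.65 to -0.24). CXCL8 (ENSG00000169429), which encodes interleukin-8, had 414 counts with PGC-1α and 613 in the control, a log2 ratio of -0.39 (-0.58 to -0.21). The PGC-1α library was the lower one for all 3 of these genes, and the 3 ratios lay within each other's intervals.

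CXCL5 (ENSG00000163735), also known as ENA-78, had 5939 counts in the PGC-1α library and 7326 in the control. Its levels of 245 CPM with PGC-1α and 269 CPM in the control gave a log2 ratio of -0.13 (-0.18 to -0.08), or 0.913 times the control level. The interval is narrow because the counts are high, and it does not overlap those of CXCL1, CXCL2 or CXCL8. CXCL3 (ENSG00000163734) had 194 counts in the PGC-1α library and 222 in the control, which is a log2 ratio of -0.02 (-0.31 to 0.26). No difference in CXCL3 was detectable, and its interval overlapped those of CXCL1, CXCL2 and CXCL8.

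CXCL1, CXCL2 and CXCL3 are close paralogs, so reads may have been divided among them. Of their distinct 50-base transcript strings, 4.81% of those of CXCL1, 12.5% of those of CXCL2 and 6.01% of those of CXCL3 occur in another gene, in each case another of the 3. With the 3 genes summed, the counts were 958 in the PGC-1α library and 1393 in the control, a log2 ratio of -0.37 (-0.49 to -0.25). CXCL6, the closest relative of CXCL5, had 0 counts with PGC-1α and 2 in the control. Adding it to CXCL5 left the log2 ratio at -0.13.

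All 5 CXC genes lie on chromosome 4 between 73740506 and 74099293, a stretch of 359 kb that holds 16 listed genes, of which 9 are protein-coding. CXCL8 and CXCL1 are on the + strand (73740506 to 73743716 and 73869393 to 73871242). CXCL5, CXCL3 and CXCL2 are on the - strand (73995642 to 73998779, 74036589 to 74038807 and 74097035 to 74099293). The members were the 5 measured genes of the stretch. Of the other 11 genes, 7 were at 0 in both libraries, and the highest count was 9, for PF4, which had 9 counts in each library. The platelet chemokine gene PPBP and its neighbour PF4V1 were among those at 0. CXCL5, the most abundant of the 10 genes, thus has the near-silent PF4 and PPBP as its neighbours on one side.

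**Figure D3:**
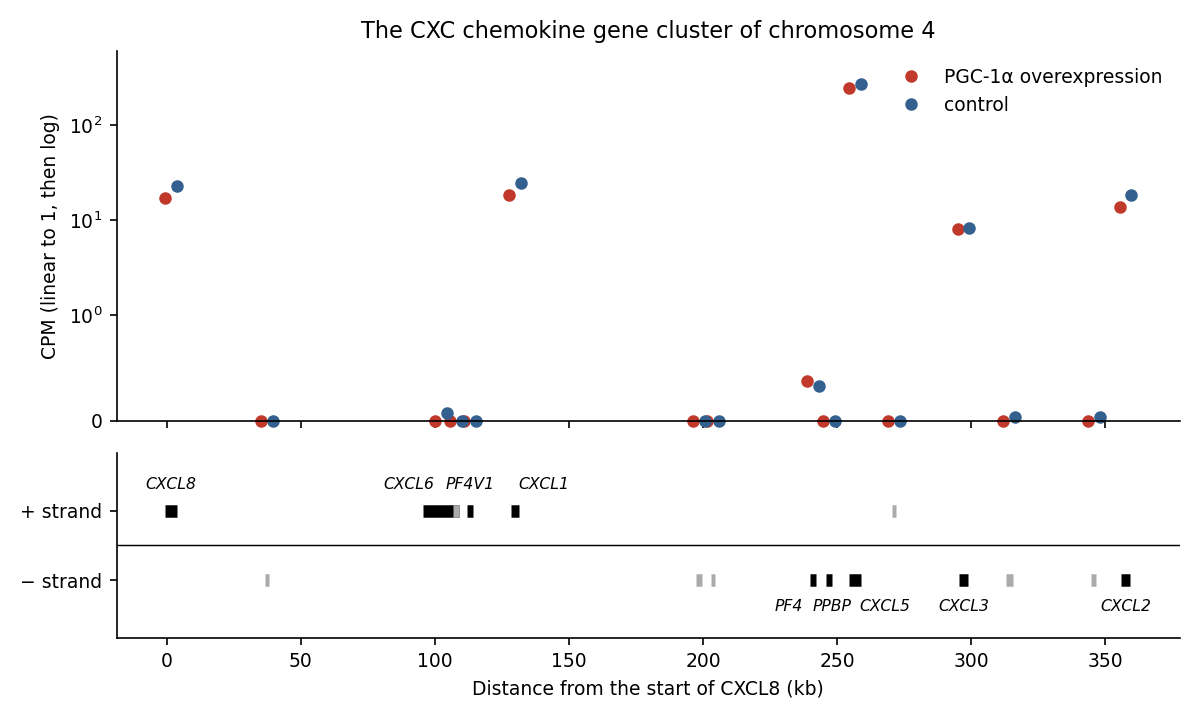
Level of every listed gene of the chromosome 4 chemokine stretch (upper panel, CPM, linear to 1 and logarithmic above) and the position and strand of each gene (lower panel, kb from the start of CXCL8; black, protein-coding; grey, other); red is PGC-1α overexpression and blue the control, drawn side by side. CXCL8, CXCL1, CXCL5, CXCL3 and CXCL2 stand above 1 CPM, and the 11 other genes are at or near 0.

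LIF (ENSG00000128342, chromosome 22, 30240447 to 30246851, - strand) had 3031 counts in the PGC-1α library and 3940 in the control. The levels were 125 CPM with PGC-1α and 144 CPM in the control, a log2 ratio of -0.21 (-0.28 to -0.14). The lower value with PGC-1α was outside counting error and well under 1.5-fold. Antisense genes LIF-AS1 and AC004264.1 overlap its exons, with at most 51 counts in a library. IL6 (ENSG00000136244, chromosome 7, 22725884 to 22732002, + strand), the best known ligand of the family, was detected at low counts, with 19 in the PGC-1α library and 28 in the control. Its mean of 0.906 CPM left it out of the measured genes, and its log2 ratio of -0.38 (-1.31 to 0.50) leaves the direction unresolved.

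Summed over the 10 genes, the libraries held 10936 counts with PGC-1α and 14109 in the control, a log2 ratio of -0.20 (-0.23 to -0.16). CXCL5 gave 5939 of those counts with PGC-1α and 7326 in the control. Without CXCL5 and LIF the sum was 1966 with PGC-1α and 2843 in the control, a log2 ratio of -0.36 (-0.44 to -0.28).

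**Figure D4:**
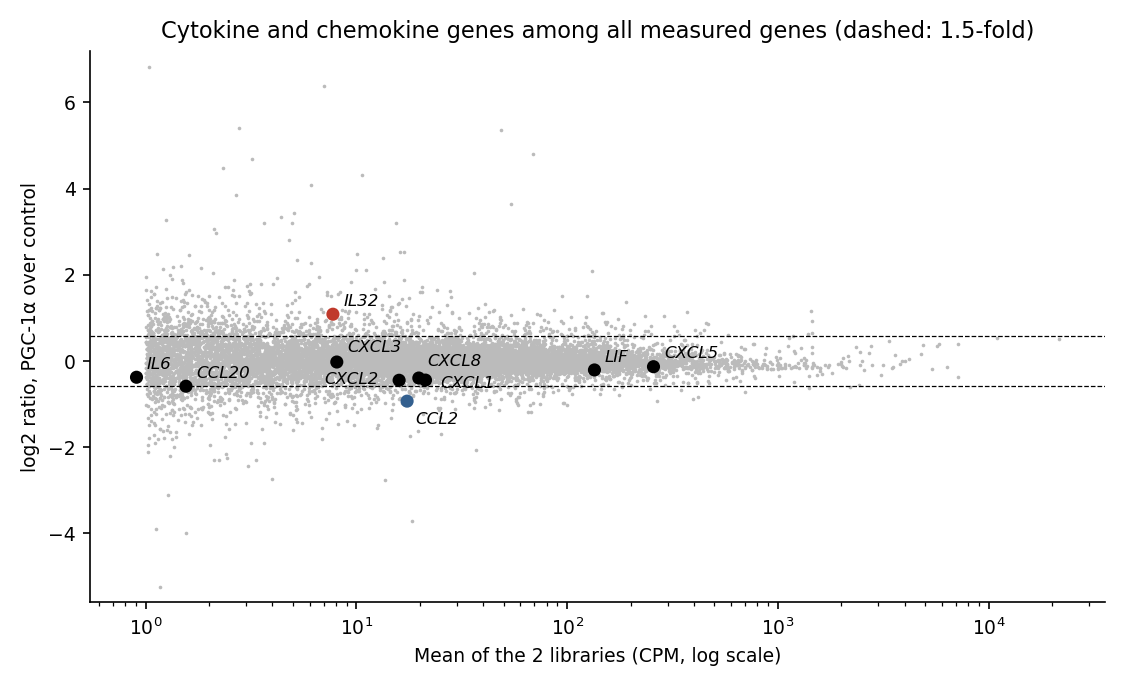
Log2 ratio of PGC-1α overexpression over control against the mean level of both libraries (CPM, log axis) for all measured genes except PPARGC1A (grey), with the 10 cytokine and chemokine genes named. IL32 (red) lies above and CCL2 (blue) below the dashed lines of 1.5-fold, and the other genes lie within or on them.

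Few other chemokine genes were measured. Of 37 further chemokine genes, 22 were at 0 in both libraries and 2 were measured. CCL26, an eosinophil attractant, was lower, with 14 counts in the PGC-1α library and 48 in the control and a log2 ratio of -1.57 (-2.58 to -0.72). CXCL16 stood at 18.8 CPM with PGC-1α and 24.97 CPM in the control, a log2 ratio of -0.41. Of 36 further cytokine genes 10 were measured, and 6 of the 36 were at 0 in both libraries. Among the 10 measured, 4 were lower, beside 3.95% of all measured genes. CSF1, the growth factor of macrophages, had 1605 counts with PGC-1α and 3669 in the control, a log2 ratio of -1.02 (-1.11 to -0.94). IL11, which signals through gp130 as IL6 and LIF do, stood at -0.83 (-0.997 to -0.67), TNFSF15 at -1.19 and EBI3 at -0.89 in log2 ratio. Abundant cytokine genes that were not called were GDF15, at 82.5 FPKM with PGC-1α and 102 FPKM in the control and a log2 ratio of -0.28, IL18 at -0.52 and CLCF1 at 0.17. IL1B, TNF and CXCL10, named after their values were seen, had at most 9 counts in a library.

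Among receptors for the 10 ligands, IL6R was lower, with 157 counts in the PGC-1α library and 355 in the control and a log2 ratio of -1.002 (-1.29 to -0.73). The shared subunit IL6ST stood at 153 CPM with PGC-1α and 189 CPM in the control, a log2 ratio of -0.30, and LIFR at 0.22. The chemokine receptor genes CXCR1, CXCR2, CCR2 and CCR6 were at 0 in both libraries.

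Genes of the NF-κB machinery lay mostly on the higher side, without passing the threshold. None of 11 measured NF-κB subunits and kinases and none of 13 inhibitors and feedback genes passed 1.5-fold. Among all measured genes 5.31% were called higher and 3.95% lower. The ratio was above 1 for 9 of the 11 and for 11 of the 13, while 51.0% of all measured genes had a ratio below 1. Both lists were chosen with earlier results of these data known, so this contrast too is a description. The list medians were 0.19 and 0.16 in log2 ratio, beside -0.005 for all measured genes. NFKB2 stood at 0.43 and MAP3K14 at 0.19, while the subunit RELA stood at -0.15 and the inhibitor gene NFKBIA at -0.36. TNIP1 at 0.07 and NFKBIB at -0.04 were the other most abundant genes of these lists. RELB at 0.55, named after its value was seen, was the highest subunit. Of 10 other measured NF-κB targets, SOD2 was higher at 0.81, LCN2 at -1.41 and C3 at -1.02 were lower, and TNFAIP2 at -0.24, IER3 at -0.21 and PLAU at -0.50 were not called. Of 24 measured genes of IL-1, TNF, TLR and IL-17 receptor signalling, TIRAP was higher at 0.70 and TLR1 lower at -0.99. TLR1 overlaps the more abundant TLR6 and is uncertain. IRAK1 at -0.04, TNFRSF1A at -0.32 and LTBR at -0.43 were the most abundant of that list.

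**Figure D5:**
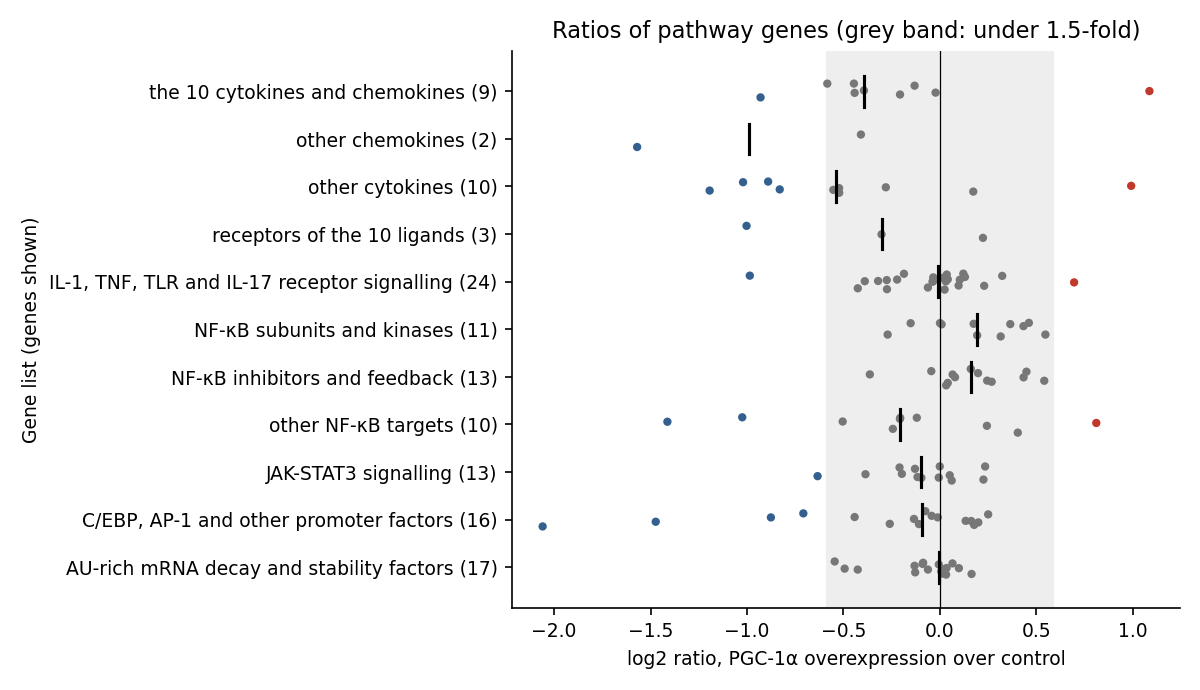
Log2 ratio of PGC-1α overexpression over control for the measured genes of each list, 1 point a gene, with the list median as a black bar; red points were called higher and blue points lower at 1.5-fold. Both NF-κB component lists have medians above 0 and the cytokine and chemokine lists medians below 0.

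Of 16 C/EBP, AP-1 and other promoter factors, EGR1 among the others, 4 were lower and none higher. Among all measured genes 3.95% were lower and 5.31% higher, and the list median was -0.09 in log2 ratio. EGR1 stood at -2.06, FOSB at -1.47, FOS at -0.88 and ATF3 at -0.71 in log2 ratio, while FOSL2 at 0.16, CEBPB at 0.20 and JUNB at 0.25 were the most abundant. ERCC1 is listed across FOSB on the opposite strand and is more abundant, at 2082 counts with PGC-1α and 2207 in the control. The exons of FOSB and ERCC1 do not overlap in GENCODE 29. The part of ERCC1 in the FOSB counts was not tested, and FOSB is kept as uncertain. Of 13 measured genes of JAK-STAT3 signalling, SOCS3, the feedback inhibitor of gp130 signalling, was lower at 29.3 CPM with PGC-1α against 45.5 CPM in the control, a log2 ratio of -0.63 (-0.77 to -0.50). JAK1 stood at 0.05 and PTPN11 at 0.06 in log2 ratio, and PTPN11 overlaps the more abundant RPL6. None of 17 genes of AU-rich mRNA decay and stability passed 1.5-fold, and their median log2 ratio was -0.005. The most abundant were YBX1 at 0.01, CNOT1 at 0.02 and HNRNPD at 0.03.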

How the data were processed

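Each of the 2 A549 libraries had a table of counts and a table of FPKM. The authors deposited raw counts per gene, per the file headers with symbol, coordinates, strand and length. The FPKM deposited by the authors equalled the counts divided by gene length and 1 library constant within a relative 1e-06, so they are no separate measurement. Per the submitters' processing notes the tools were TopHat2 2.0.9, Bowtie2 2.0.6, Cuffdiff 2.1.1 and Cufflinks 2.1.1, with no roles stated. For the counter, the build and the strand setting, the sources used here give nothing. Start and end matched GENCODE 29 on GRCh38 for 97.6% of shared gene identifiers and for 9 of the 10 genes described, CCL20 being the exception.

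Counts were scaled with TMM (edgeR 4.0.16, R 4.3.3), and log2 ratios used 0.5 added to each count. The fold thresholds were applied to the ratio of scaled counts without that addition. Intervals are Clopper-Pearson intervals of the split of both counts, and FPKM intervals are exact Poisson intervals. Both cover counting error only, because each group holds 1 library. PCR copies of a molecule cannot be recognised without molecular identifiers, and the intervals make no allowance for them. A count of 3, the limit that a 0 allows, was 0.124 CPM with PGC-1α and 0.110 CPM in the control. No test could be fitted with 1 library a group. A gene was called when it had a mean of at least 1 CPM, differed at least 1.5-fold and had an interval that excluded a ratio of 1. In each list all called genes were named, or the top 5, with the 3 most abundant others, except a few genes that are not reported here. The call rule was tested on simulated counts that carried counting error alone. The genes and lists were chosen with earlier results of these data known. Python 3.11.15, scipy 1.17.1 and pandas 2.3.3 were used. Alternatives were 3 other scalings, FPKM with pseudocounts of 0.1 and 1, other CPM filters, a 2-fold threshold and summed paralogs, with DESeq2 1.42.0 for 1 scaling.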

Additional observations from a re-analysis of the deposited data

How the results depend on the processing

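Under the 3 other scalings the log2 ratio of each of the 10 genes moved by at most 0.02. No call at 1.5-fold changed for any of them under those scalings or on the FPKM scale. The FPKM scale is no separate check, because its library constants equal the DESeq2 library sizes. Its calls also reused the intervals of the TMM-scaled counts. With a pseudocount of 1 on FPKM the log2 ratio of IL32 was 0.74. The median of the measured genes among the 10 stayed between -0.41 and -0.30 under the alternatives run. With a 2-fold threshold, 0 of the 10 genes were lower and IL32 was still higher. The 10 pathway lists held 202 genes, of which 3 were higher and 14 lower. Not all of the 202 were measured, and only genes passing the filter of a setting could be called. The 202 is therefore no base for a share to set beside those of all measured genes. Among all measured genes 5.31% were higher and 3.95% lower. With a 2-fold threshold 1 gene of the lists was higher and 8 lower, beside 1.78% and 1.17% of all measured genes. Over genes averaging 5 CPM or more, 8 of the lists were lower, beside 2.42% of all such genes. With FPKM and a pseudocount of 1, 1 gene of the lists was higher. Of all genes, 751 were higher and 559 lower at 1.5-fold. These counts were 1302 and 889 with no filter on low counts, 382 and 269 over genes averaging 5 CPM or more, and 252 and 165 at 2-fold, because each setting changes which genes can be called. No paired analysis was possible because each group holds 1 library, and for the same reason no library could be left out. Depth limits IL6 and CCL20, whose intervals span 1. How far separate cultures would differ was not measured.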

Other observations

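The 3′ untranslated regions of these genes differ in the AU-rich pentamer ATTTA, a feature of short-lived mRNAs, counted here in the longest annotated 3′ region of each gene in GENCODE 29. IL32, the gene that was higher with PGC-1α, held 0 copies in 464 bases. CCL2, the gene that was lower, held 1 in 473 bases, and LIF held 7 in 3204 bases. The density was highest in IL6 at 13.99 per kb and CXCL2 at 13.9 per kb, followed by CXCL3 at 10.4, CXCL8 at 7.19, CXCL1 at 7.08, CCL20 at 6.24 and CXCL5 at 5.51 per kb. The median over 19146 protein-coding genes was 1.48 per kb. The longer string ATTTATTTA occurred in 3 of the 10 genes, CXCL1, CXCL2 and CXCL8, and in 6.92% of all genes. These counts describe sequence, and their relation to the ratios was not tested.

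LUM, a matrix proteoglycan gene of fibroblasts under a mean of 1 CPM, had 31 counts in the PGC-1α library and 14 in the control, and COL1A1 had 799 with PGC-1α and 570 in the control, a log2 ratio of 0.66. Of 11 fibroblast markers 4 were measured, 2 with a ratio above 1 and 2 below, and their median log2 ratio was -0.03. ACTA2 had 70 counts with PGC-1α and 93 in the control, COL3A1 24 with PGC-1α and 30 in the control, and THY1 308 with PGC-1α and 326 in the control. ACTA2 is overlapped on the opposite strand by the more abundant FAS and STAMBPL1 and is uncertain. Under a mean of 1 CPM, PDGFRA had 5 counts with PGC-1α and 14 in the control, PDGFRB 7 with PGC-1α and 15 in the control, COL1A2 12 with PGC-1α and 19 in the control, and DCN 2 in each library. Of 8 endothelial markers 1 was measured, ESAM, with a log2 ratio of -0.14, while KDR, EMCN and CDH5 were at 0 in both libraries. Among epithelial genes of A549 cells, KRT19 was lower, with 722 counts in the PGC-1α library and 1786 in the control, a log2 ratio of -1.13, and CDH1 was lower at -0.95. The aldo-keto reductase genes AKR1C1 and AKR1B10, abundant in A549 cells, were the other called genes of that list, both lower. Of the 9 measured genes of that list, 6 had a ratio below 1 and 3 above. LUM, DCN, PDGFRA, PDGFRB, COL1A2 and EPCAM were named after their values were seen. EPCAM had 118 counts with PGC-1α and 89 in the control, a log2 ratio of 0.58 (0.17 to 0.99).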
